A study of Mus musculus with 6 samples.

Results

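The mouse mitochondrial genome is read out as 37 genes, and these are all the rows of the expression files whose Ensembl identifier maps to a mouse symbol starting with mt-. They make up 37 of 53953 rows: 13 mRNAs, 2 rRNAs and 22 tRNAs. RNA came from small-intestinal organoids, epithelial cultures grown in Matrigel from C57BL/6 wild-type mice (crypts of the proximal small intestine), at passage 3 to 5. The arachidonic acid group (3 libraries) was exposed for 3 days to arachidonic acid, a polyunsaturated fatty acid of the omega-6 family dissolved in 0.1% ethanol, and was then passaged. The vehicle group (3 libraries) received 0.1% ethanol alone. Total RNA of both groups was collected on day 3 after passaging and sequenced on an Illumina NovaSeq instrument. The sources used here give no arachidonic acid concentration, substrain, age or sex of the mice, nor how RNA was selected for the libraries.

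Both strands of mitochondrial DNA are transcribed as long precursors, and most mRNAs and rRNAs lie between tRNA genes that are cut out to release them. The 13 mRNAs encode core subunits of respiratory complexes I, III and IV and of ATP synthase (complex V), which are completed by many nuclear-encoded subunits. In the gut lining, mitochondrial content and respiration are known to differ between stem, secretory and absorptive cells.

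The values implied 50.8, 35.6 and 48.6 M fragments (M, 1e+06) in the arachidonic acid libraries, against 37.4, 36.6 and 38.5 M in the vehicle libraries. Arachidonic acid library 1 stood apart from the others of its group: on the first principal component, with 85.2% of the variance, it lay at 10.2, against 58.1 and 54.6 for arachidonic acid libraries 2 and 3 and -41.6 to -40.4 for the vehicle libraries. The epithelial markers Epcam, Cdh1, Vil1, Krt8, Krt18 and Cdx2 were expressed in every library, but not at equal levels. Krt8 and Krt18 were called higher with arachidonic acid, and Epcam and Cdx2 lower. The calls of Epcam and Cdx2 depended on single libraries (limma adjusted p up to 0.061 and 0.094). Summed FPKM (fragments per kilobase of gene and M fragments of the library) of 7 goblet cell markers was 369 to 716 in arachidonic acid libraries and 1608 to 2032 in vehicle libraries. For 6 Paneth cell markers it was 450.2 to 990 with arachidonic acid and 1940.5 to 2898 with vehicle, and for 6 enteroendocrine markers 114 to 154 with arachidonic acid and 598 to 704 with vehicle. Of 10 enterocyte markers 2 rose and 4 fell, with a median log2 fold change of -0.50. Their sum was 2181 to 5405 FPKM with arachidonic acid (mean 3414) and 1497 to 1875 FPKM with vehicle (mean 1668). The fatty acid-binding protein gene Fabp1, singled out after its values were seen, rose by more than this sum did. Fabp1 was at 1617 to 4094 FPKM with arachidonic acid (mean 2565) and 313 to 412 FPKM with vehicle (mean 354). On average, the other enterocyte markers together were thus lower with arachidonic acid, but the groups overlapped. In arachidonic acid library 1 the sum was 5405 FPKM with Fabp1 at 4094, and in vehicle library 1 it was 1497 with Fabp1 at 313. The other of the 2 markers that rose was Alpi (log2 fold change 1.76, limma adjusted p = 0.0013). For 4 crypt stem cell markers, of which 1 rose and 2 fell, the sum was 227 to 288 FPKM with arachidonic acid and 454 to 527 FPKM with vehicle. Of 5 immune markers only Cd68, a macrophage marker, was tested, and it rose: it was at 3.52, 23.9 and 16.8 FPKM in arachidonic acid libraries 1, 2 and 3 and at 1.53 to 2.14 FPKM with vehicle, while the other 4 were below 1 FPKM in every library. The call of Cd68 was lost on leaving out any library except arachidonic acid library 1 (limma adjusted p up to 0.090). Fibroblast markers summed to at most 0.191 FPKM, and the erythroid genes Hba-a1 and Hbb-bs were listed at 0. The part of these marker differences in the results on mitochondrial transcripts was not tested. In bulk RNA, fewer cells of a type and less RNA per cell cannot be told apart.

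Mitochondrial transcripts were less abundant after arachidonic acid, by unequal amounts. They held 2.71%, 2.43% and 2.18% of all FPKM in arachidonic acid libraries 1, 2 and 3 and 3.43%, 4.22% and 3.20% in vehicle libraries 1, 2 and 3, with no overlap between the groups. Of the 37 genes, 16 averaged 1 FPKM or more and were tested: all 13 mRNAs, both rRNAs and 1 tRNA, mt-Tp. Of these 16, 11 were lower and 0 higher with arachidonic acid at an adjusted p below 0.05 (limma across 12913 rows, Benjamini-Hochberg), against 19.4% of all rows tested called lower, 20.8% called higher and 40.2% called in either direction. At an unadjusted p below 0.05, 1 of the 16, mt-Tp, was higher, and limma-voom on recovered fragments called 0 higher. The median log2 fold change was -0.96 over the 16 genes and -0.03 over all rows tested. All values of the arachidonic acid group lay below all vehicle values for 13 of the 16 genes and above them for 1, mt-Tp (background 27.5% and 27.6% of rows). No label says whether each library had a culture or animal of its own, so the p-values speak only of the spread among these libraries, and it may be technical.

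**Figure D1:**
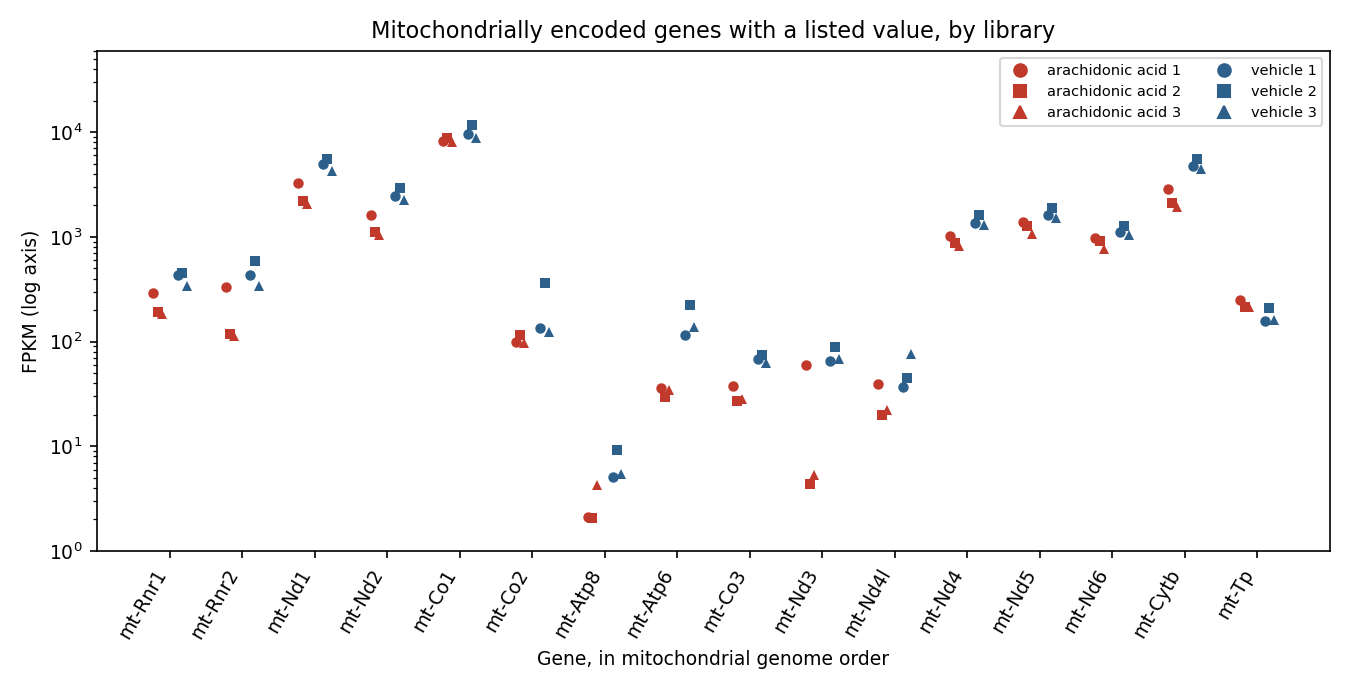
FPKM (log axis) of the 16 mitochondrial genes tested, in each arachidonic acid library (red) and each vehicle library (blue), in mitochondrial genome order. The levels span 2.07 FPKM for mt-Atp8 to 11769 FPKM for mt-Co1, and mt-Nd3 is spread widely within the arachidonic acid group, at 60.2, 4.36 and 5.33 FPKM.

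Calls depended on single libraries in part. Without vehicle library 1 or without vehicle library 2, 6 mitochondrial genes were called lower, without arachidonic acid library 2 there were 7, and without arachidonic acid library 1 there were 13. The calls gained without arachidonic acid library 1 were those of mt-Nd3 and mt-Nd4l, whose levels are uncertain because of nuclear copies described below. In arachidonic acid libraries 2 and 3 the copy held 93.9% and 93.7% of the fragments of the mt-Nd3 pair, and 43.4% and 43.9% for mt-Nd4l. The calls of mt-Nd1, mt-Nd2, mt-Atp6, mt-Co3, mt-Nd4 and mt-Cytb held without each library in turn. Arachidonic acid library 1 lay between the vehicle libraries and arachidonic acid libraries 2 and 3 for 11 of the 16 genes, and nearer to the vehicle mean for 3 of the 16, mt-Rnr2, mt-Nd3 and mt-Nd4l.

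Both rRNAs of the mitochondrial ribosome fell. The small-subunit rRNA mt-Rnr1 (ENSMUSG00000064337) was at 292, 190.1 and 182 FPKM in arachidonic acid libraries 1, 2 and 3 and at 434, 452 and 341 FPKM in vehicle libraries 1, 2 and 3. The log2 fold change was -0.91 (SE 0.20, limma adjusted p = 0.013), where this and every other fold change compares log2(FPKM + 1). The call was lost without vehicle library 1 (adjusted p = 0.056) or vehicle library 2 (adjusted p = 0.052). The large-subunit rRNA mt-Rnr2 (ENSMUSG00000064339) was at 334, 119 and 114 FPKM with arachidonic acid and at 430.04, 589 and 338 FPKM with vehicle. Arachidonic acid library 1 thus lay just under the lowest vehicle library, and libraries 2 and 3 far below it. The log2 fold change of mt-Rnr2 was -1.41 (SE 0.43, limma adjusted p = 0.039), and the call was lost on leaving out any library except arachidonic acid library 1, with adjusted p up to 0.12. The ratio of mt-Rnr2 to mt-Rnr1, in FPKM, was 1.14, 0.627 and 0.626 with arachidonic acid and 0.991, 1.305 and 0.989 with vehicle, so that 2 of the 3 treated libraries lay below the vehicle range and 1 within it. The RNA selection used for the libraries bears on how fully rRNA is captured, and its part in these values was not tested.

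Complex I, the NADH dehydrogenase that feeds electrons into the chain, has 7 mitochondrially encoded subunits, of which 5 fell, with a median log2 fold change of -0.93 over the 7. The first gene after the rRNAs, mt-Nd1 (ENSMUSG00000064341), was at 3242, 2181 and 2067 FPKM in arachidonic acid libraries 1, 2 and 3 and at 4996, 5504 and 4237 FPKM in vehicle libraries 1, 2 and 3. The log2 fold change of mt-Nd1 was -0.998 (SE 0.19, limma adjusted p = 0.0082). The next mRNA gene, mt-Nd2 (ENSMUSG00000064345), had 1604, 1119 and 1052 FPKM with arachidonic acid and 2455, 2903 and 2245 FPKM with vehicle, a log2 fold change of -1.03 (SE 0.18, limma adjusted p = 0.0061). In both genes the groups were clear of each other, and arachidonic acid library 1 was the highest of its group.

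Further along the genome, mt-Nd4, mt-Nd5 and mt-Nd6 fell with smaller fold changes than mt-Nd1 and mt-Nd2. mt-Nd4 (ENSMUSG00000064363) was at 1016, 883 and 814 FPKM with arachidonic acid and at 1355, 1635 and 1312 FPKM with vehicle (log2 fold change -0.66, SE 0.12, limma adjusted p = 0.0068). mt-Nd5 (ENSMUSG00000064367) was at 1379, 1266 and 1065 FPKM with arachidonic acid and at 1627, 1898 and 1502 FPKM with vehicle (log2 fold change -0.44, SE 0.13, limma adjusted p = 0.033). The groups did not overlap in either gene, but the call of mt-Nd5 was lost without arachidonic acid library 2 or 3 or vehicle library 1 or 2 (adjusted p up to 0.10) and under 3 scalings: quantile normalization, where the log2 fold change was -0.26 (adjusted p = 0.19), TPM rescaling (adjusted p = 0.057) and the mitochondrial genes left out of the total (adjusted p = 0.052). mt-Nd6 (ENSMUSG00000064368) is the only mRNA gene on the light strand, and 14 of its bases overlap mt-Nd5. It had 983, 918 and 771 FPKM with arachidonic acid and 1105, 1276 and 1044 FPKM with vehicle, the smallest fall among the called genes (log2 fold change -0.36, SE 0.12, limma adjusted p = 0.049). That call was lost on leaving out any library except arachidonic acid library 1 (adjusted p up to 0.15) and under all 4 scalings run, with adjusted p of 0.13 for quantile normalization, 0.091 for TPM rescaling, 0.082 with the mitochondrial genes left out of the total and 0.051 for median-of-ratios scaling. The sources used here do not say whether counting used strand, so fragments of mt-Nd6 and of RNA antisense to it cannot be told apart.

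The remaining complex I genes, mt-Nd3 and mt-Nd4l, encode small subunits of the membrane arm and missed the threshold. mt-Nd3 (ENSMUSG00000064360, chrM:9459-9806 on GRCm38) was at 60.2, 4.36 and 5.33 FPKM in arachidonic acid libraries 1, 2 and 3 and at 65.3, 89.5 and 68.1 FPKM in vehicle libraries 1, 2 and 3. Arachidonic acid library 1 was just below the vehicle range and the other two treated libraries were far below it. The log2 fold change was -2.55 (SE 0.88, limma adjusted p = 0.057), and without arachidonic acid library 1 it was -3.68 (adjusted p = 5.1e-07). limma-voom on recovered fragments also called mt-Nd3 lower (adjusted p = 0.037). mt-Nd4l (ENSMUSG00000065947) was at 39.1, 19.96 and 22.1 FPKM with arachidonic acid and at 36.8, 45.4 and 75.6 FPKM with vehicle, with arachidonic acid library 1 inside the vehicle range. Its log2 fold change was -0.93 (SE 0.33, limma adjusted p = 0.060), and -1.22 without arachidonic acid library 1 (adjusted p = 0.0039). mt-Nd4l also passed with quantile normalization (adjusted p = 0.048). With its nuclear copy Gm10222 added, a setting chosen after seeing the data, the log2 fold change was -0.64 (limma adjusted p = 0.058). That copy held 23.2%, 43.4% and 43.9% of the pair's fragments in arachidonic acid libraries 1, 2 and 3 and 27.1%, 25.5% and 14.4% in vehicle libraries 1, 2 and 3.

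mt-Nd3 and a nuclear copy of it differ at 1 base. The copy is the unprocessed pseudogene Gm28438 (chr1:24612775-24613119 on GRCm38, minus strand), and it aligned over 345 bases with 1 substitution, T3C. The token gives the base of mt-Nd3, its position counted from 1 at the first base of the gene, and the base of the copy. The first 90 bases of both transcripts are shown because they hold this difference, in capitals. They were read from the GENCODE M21 transcripts on GRCm38, mt-Nd3 at chrM:9459-9548 on the plus strand and Gm28438 at chr1:24613030-24613119 on the minus strand, 5′ to 3′.
mt-Nd3: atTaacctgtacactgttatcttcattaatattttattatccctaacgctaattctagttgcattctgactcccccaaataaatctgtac
Gm28438: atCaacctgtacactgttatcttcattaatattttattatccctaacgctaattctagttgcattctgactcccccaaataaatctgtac
Of the 100-base windows of mt-Nd3, 97.6% occur unchanged in the copy.

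Recovered fragments were divided between these 2 rows in unequal ways over the libraries. mt-Nd3 had 1063, 54 and 90 fragments in arachidonic acid libraries 1, 2 and 3 and 849, 1139 and 913 in vehicle libraries 1, 2 and 3, whereas Gm28438 had 134, 829 and 1349 with arachidonic acid and 168, 170 and 157 with vehicle. The copy thus held 11.2%, 93.9% and 93.7% of the pair's fragments in the arachidonic acid libraries and 16.5%, 12.99% and 14.7% in the vehicle libraries. Arachidonic acid libraries 2 and 3 lay apart from the other 4 libraries, which include arachidonic acid library 1. The pair together had 23.6, 24.8 and 29.6 fragments per M with arachidonic acid and 27.2, 35.8 and 27.8 with vehicle, and the groups overlapped. With the copy added to mt-Nd3, a setting chosen after seeing the data, the log2 fold change was -0.21 (SE 0.13, limma adjusted p = 0.24) in place of -2.55. The base of mitochondrial DNA at that position is known to differ between C57BL/6 substrains, and the sources used here give no substrain. Which base the RNA of each library carried there, and so whether the libraries came from mice of the same mitochondrial genotype, was not tested, since reads were not analysed here. The mt-Nd3 values, and the comparison of the groups, are subject to that limit.

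**Figure D2:**
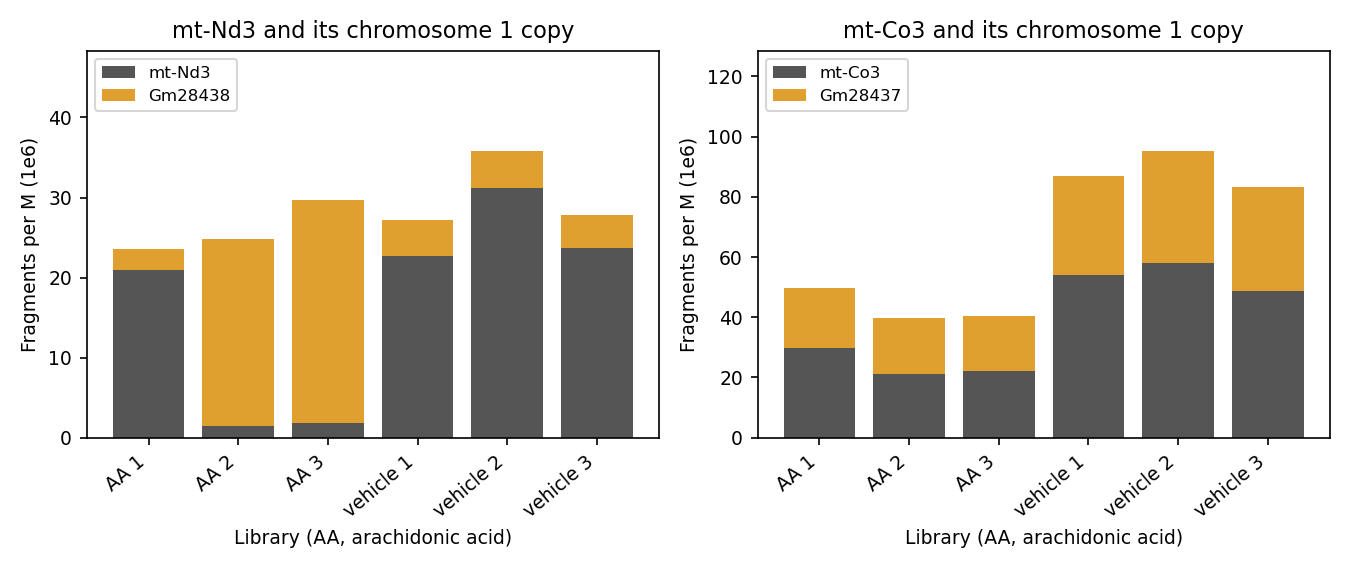
Fragments per M assigned to mt-Nd3 (left panel) and mt-Co3 (right panel), each stacked with its copy on chromosome 1, in arachidonic acid (AA) and vehicle libraries. In AA 2 and AA 3, 93.9% and 93.7% of the mt-Nd3 pair is assigned to Gm28438, against 11.2% in AA 1 and 12.99% to 16.5% in vehicle libraries, while Gm28437 takes 40.3% to 46.9% of the mt-Co3 pair in AA and 37.9% to 41.3% in vehicle libraries.

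The copy of mt-Nd3 is 1 of 7 unprocessed pseudogenes in a block of 4663 bases (chr1:24611535-24616197 on GRCm38, minus strand) that follow the order of the mitochondrial genes between mt-Co1 and mt-Nd4. The stretches of neighbouring genes that align with their copies start the same distance apart in the block and in mitochondrial DNA in 5 of 6 intervals, where the copy of mt-Co1 aligns only from base 1063 of that gene. In the other interval, the copies of mt-Nd3 and mt-Nd4l start 419 bases apart, against 418 for the mitochondrial genes. In mt-Co2, mt-Atp6, mt-Co3, mt-Nd3 and mt-Nd4l, 97.6% to 99.9% of 100-base windows occur unchanged in another annotated transcript. These 5 genes were at 4.36 to 363 FPKM over all libraries, whereas the 7 mRNAs with 0% to 60.8% of such windows, mt-Atp8 left aside, were at 771 to 11769 FPKM. mt-Atp8 breaks this division, with 0% of such windows and 2.07 to 9.25 FPKM. Only annotated transcripts were searched for copies. The aligned stretches of mt-Co2 and mt-Atp6, which flank mt-Atp8, start 914 bases apart in the block and in mitochondrial DNA. Whether the block holds an unannotated copy of mt-Atp8 was not tested. A fragment that matches 2 places equally can be dropped or split, and the sources used here do not say how the authors' counting treated it. Levels of these 5 genes relative to the other mRNAs are therefore uncertain, and so is the split between each of them and its copy. The same limit holds in part for mt-Nd4 and mt-Co1, in which 60.8% and 30.8% of 100-base windows occur unchanged in another annotated transcript.

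Complex III has 1 mitochondrially encoded subunit, cytochrome b, and its mRNA fell by about as much as those of mt-Nd1 and mt-Nd2. mt-Cytb (ENSMUSG00000064370) was at 2887, 2124 and 1931 FPKM in arachidonic acid libraries 1, 2 and 3 and at 4790.3, 5500.3 and 4492 FPKM in vehicle libraries 1, 2 and 3. The mean was 2314 ± 505 FPKM with arachidonic acid and 4927 ± 518 FPKM with vehicle (SD, n = 3 each). The log2 fold change was -1.11 (SE 0.16, limma adjusted p = 0.0037), and no window of the gene has an exact copy among annotated transcripts.

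Complex IV, cytochrome c oxidase, has 3 mitochondrially encoded subunits that form its catalytic core, and 1 of the 3 fell. mt-Co1 (ENSMUSG00000064351), the heme-bearing subunit and the most abundant of the mRNAs per length, was at 8232, 8798 and 8101 FPKM with arachidonic acid and at 9573, 11769 and 8723 FPKM with vehicle. The groups overlapped, since arachidonic acid library 2 lay above vehicle library 3. The log2 fold change of mt-Co1 was -0.25 (SE 0.13, limma adjusted p = 0.16), and 0.15 with quantile normalization (adjusted p = 0.52). mt-Co2 (ENSMUSG00000064354), which accepts electrons from cytochrome c, was at 98.5, 116 and 96.4 FPKM with arachidonic acid and at 134, 363 and 123.5 FPKM with vehicle, with vehicle library 2 far above the rest. With its copy Gm28661 added, the log2 fold change was -0.77 (limma adjusted p = 0.094). Without the copy it was -0.81 (SE 0.39, limma adjusted p = 0.14), and -0.32 without vehicle library 2 (adjusted p = 0.083). mt-Co3 (ENSMUSG00000064358) was at 37.8, 26.9 and 28.4 FPKM with arachidonic acid and at 68.8, 74.0 and 62.2 FPKM with vehicle (log2 fold change -1.13, SE 0.14, limma adjusted p = 0.0021). With its copy Gm28437 added it still fell, by 1.02 on the log2 scale (adjusted p = 0.0012).

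ATP synthase has 2 mitochondrially encoded subunits, in overlapping genes that share 43 bases, and both fell. mt-Atp6 (ENSMUSG00000064357), part of the proton channel, was at 36.4, 29.4 and 34.7 FPKM in arachidonic acid libraries 1, 2 and 3 and at 115, 223 and 138 FPKM in vehicle libraries 1, 2 and 3. Its log2 fold change of -2.16 (SE 0.23, limma adjusted p = 0.0015) was the largest among the called mitochondrial genes, and arachidonic acid library 1 lay with libraries 2 and 3. With its copy Gm10925 added, the log2 fold change was -1.80 (adjusted p = 0.0014). mt-Atp8 (ENSMUSG00000064356), a small membrane subunit, was at 2.12, 2.07 and 4.24 FPKM with arachidonic acid and at 5.12, 9.25 and 5.47 FPKM with vehicle. Those values rest on 22, 15 and 42 fragments with arachidonic acid and on 39, 69 and 43 with vehicle. This gave a log2 fold change of -1.005 (SE 0.28, limma adjusted p = 0.029), and the call was lost without arachidonic acid library 2 or any 1 vehicle library (adjusted p up to 0.089).

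**Figure D3:**
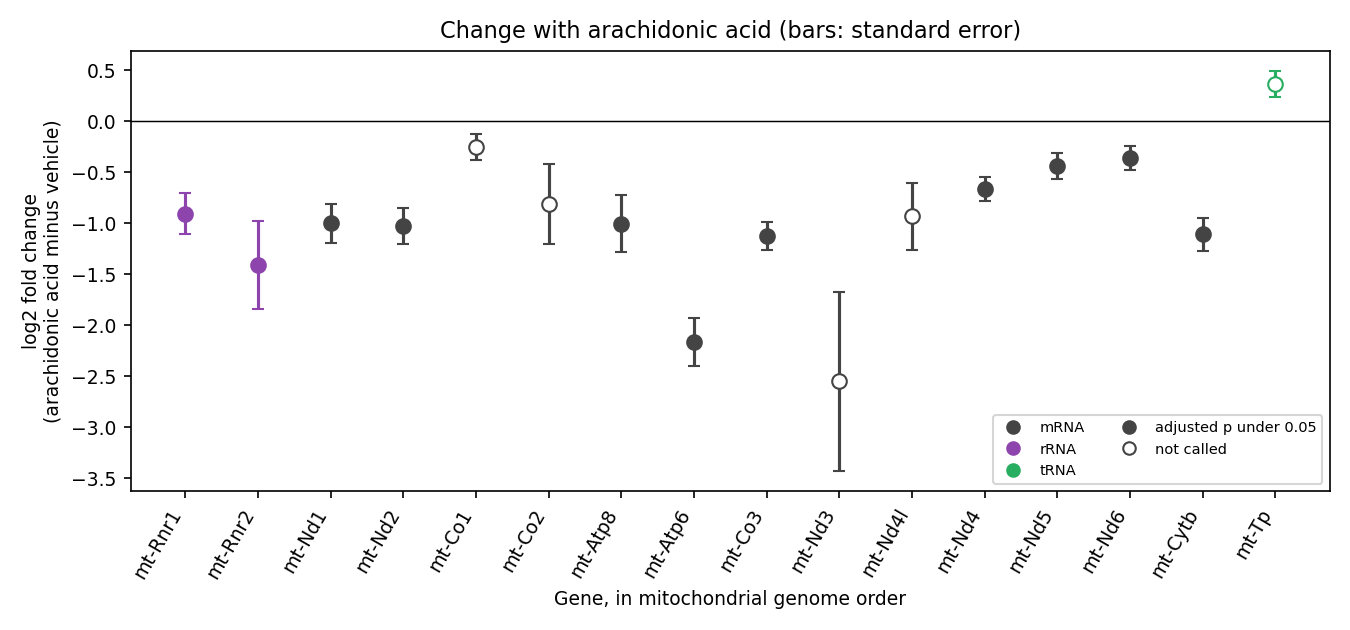
Log2 fold change (arachidonic acid minus vehicle, log2(FPKM + 1) scale) of each tested mitochondrial gene in genome order, with its standard error; filled points passed the test and open points did not. The 13 mRNAs and 2 rRNAs lie below 0, between -2.55 and -0.25, and mt-Tp lies at 0.37. mt-Co1 is at 0.15 with quantile normalization. mt-Nd3, the lowest point, is at -0.21 with its nuclear copy added, a setting chosen after seeing the data.

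Of the 22 tRNA genes, 21 were listed at 0 in all 6 libraries and 1 had values. mt-Tp (ENSMUSG00000064372), the proline tRNA gene, lies on the light strand at chrM:15356-15422 (GRCm38), at the end of the annotated genes and next to the control region. Its 67 bases, from the GENCODE M21 transcripts, are shown because it is the only tRNA row with a signal and the only tested mitochondrial gene with a positive log2 fold change; no base is singled out.
mt-Tp: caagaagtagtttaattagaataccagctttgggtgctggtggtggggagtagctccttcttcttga
mt-Tp was at 250.5, 213 and 215 FPKM in arachidonic acid libraries 1, 2 and 3 and at 157, 209 and 161 FPKM in vehicle libraries 1, 2 and 3. All 3 treated libraries were above the vehicle libraries, by little in the case of vehicle library 2. For mt-Tp the log2 fold change was 0.37 (SE 0.13, limma adjusted p = 0.057). The threshold was passed without vehicle library 2 (adjusted p = 0.024), with TPM or median-of-ratios scaling (adjusted p = 0.040 in both) and with the mitochondrial genes left out of the total (adjusted p = 0.049). Relative to cytochrome b mRNA, mt-Tp had 5.08, 5.86 and 6.53 fragments per 1000 mt-Cytb fragments with arachidonic acid and 1.92, 2.23 and 2.10 with vehicle, and the groups did not overlap. Fragments of a gene this short may belong to mature tRNA or to longer precursor or antisense RNA, which cannot be told apart.

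The proportions among mitochondrial mRNAs differed between the groups. mt-Co1 made up 42.0%, 50.3% and 50.7% of the summed FPKM of the 13 mRNAs in arachidonic acid libraries 1, 2 and 3 and 36.4%, 37.6% and 36.3% in vehicle libraries 1, 2 and 3. mt-Cytb made up 14.7%, 12.1% and 12.1% with arachidonic acid and 18.2%, 17.6% and 18.7% with vehicle. The summed FPKM of complex IV mRNAs over that of complex I mRNAs was 1.01, 1.40 and 1.42 with arachidonic acid and 0.840, 0.914 and 0.850 with vehicle. The complex IV sum was nearly all mt-Co1, on average 8377 of 8512 FPKM with arachidonic acid and 10021.5 of 10297 FPKM with vehicle. This ratio therefore largely repeats the share of mt-Co1. mt-Co2 (not called) and mt-Co3 had log2 fold changes of -0.81 and -1.13, and their levels are uncertain because of their nuclear copies. In both shares and in the ratio, the groups were apart and arachidonic acid library 1 was the treated library nearest to vehicle.

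The light-strand mRNA mt-Nd6 was set against the heavy-strand mRNAs encoded on either side of it. The ratio of mt-Nd6 to mt-Cytb, in FPKM, was 0.340, 0.432 and 0.399 with arachidonic acid and 0.231, 0.232 and 0.232 with vehicle, so that the vehicle libraries were nearly equal and all treated libraries were higher. The ratio of mt-Nd6 to mt-Nd5, which its gene overlaps, was 0.713, 0.726 and 0.724 with arachidonic acid and 0.679, 0.672 and 0.695 with vehicle, a much smaller separation. rRNA over mRNA, in summed FPKM, was 0.0319, 0.0177 and 0.0185 with arachidonic acid and 0.0328, 0.0333 and 0.0283 with vehicle, and the groups overlapped through arachidonic acid library 1. These ratios are descriptions without a test. Since use of strand in counting is not known, the mt-Nd6 values may include RNA antisense to it.

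**Figure D4:**
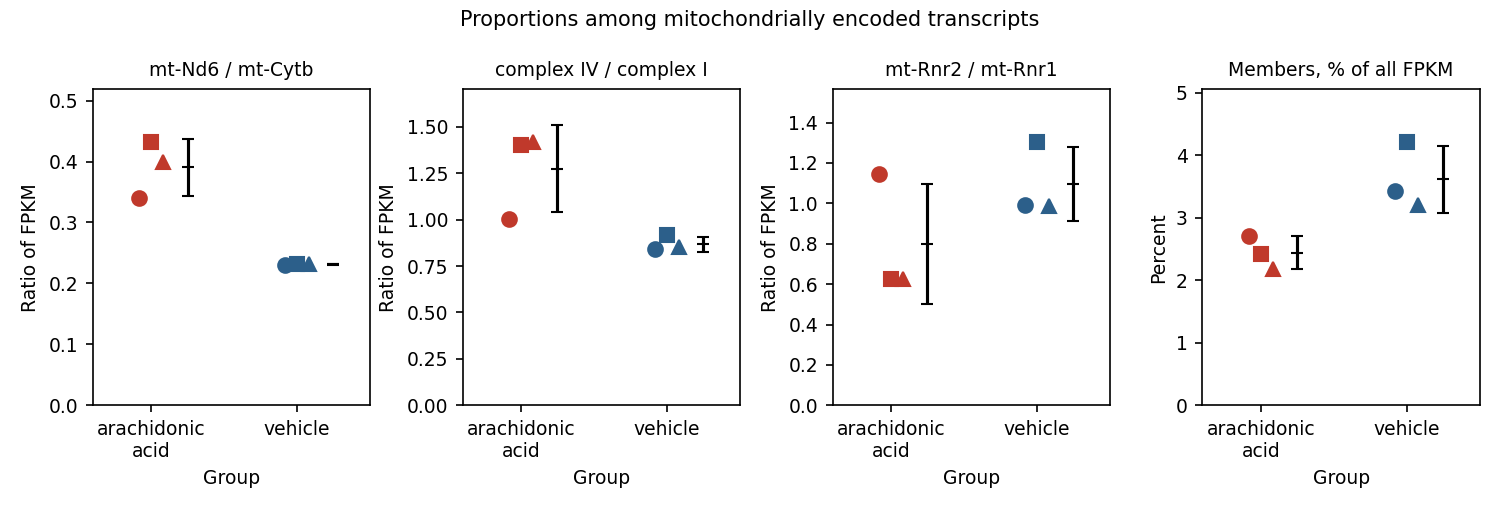
Ratios of FPKM and the percent of all FPKM in mitochondrial genes, by group, with a point per library (circle, square and triangle for libraries 1, 2 and 3) and the mean with its SD. The ratio of mt-Nd6 to mt-Cytb is 0.340 to 0.432 with arachidonic acid and 0.231 to 0.232 with vehicle, whereas mt-Rnr2 over mt-Rnr1 overlaps, because arachidonic acid library 1 is at 1.14. The mt-Nd6 values may include RNA antisense to it.

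Nuclear-encoded subunits of the same complexes had smaller median log2 fold changes. Their single values ran from -0.54 to 0.54, a range that also held mt-Nd5, mt-Nd6 and mt-Co1. Of 77 tested subunits of complexes I to V, 26 (33.8%) fell and 0 rose, against 19.4% of all rows called lower and 20.8% called higher, with a median log2 fold change of -0.18. At an unadjusted p below 0.05, limma gave 3 of them higher, and limma-voom called 0 higher. By complex, 9 of 36 fell in complex I, 2 of 4 in complex II (which has no mitochondrially encoded subunit), 4 of 9 in complex III, 2 of 11 in complex IV and 9 of 17 in complex V. The 25% of complex I and 18.2% of complex IV lie near the share of all rows called lower. Without arachidonic acid library 1 these counts were 11, 4, 7, 6 and 15, with 2 complex I subunits higher, and with TPM rescaling 2 complex I subunits and 1 complex IV subunit were called higher. With other single libraries left out, complex I had as few as 3 lower subunits, complex V 4 and complexes II to IV 0.

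The called subunits fell by modest amounts. Ndufb11, a membrane-arm subunit of complex I, was at 165 ± 7.73 FPKM with arachidonic acid and 225 ± 9.71 FPKM with vehicle (SD, n = 3 each; log2 fold change -0.45, limma adjusted p = 0.0035). Atp5h, a stator subunit of ATP synthase, was at 401 ± 14.7 FPKM with arachidonic acid and 527 ± 20.8 FPKM with vehicle (log2 fold change -0.39, limma adjusted p = 0.0047). Both calls held without each library in turn. Uqcrh of complex III (log2 fold change -0.37, limma adjusted p = 0.021) and Cox7b of complex IV (-0.34, adjusted p = 0.027) lost theirs without arachidonic acid library 2 or 3 or vehicle library 1 or 2, and Cox7b also without vehicle library 3, with adjusted p up to 0.078 and 0.089.

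The balance between genomes differed between the groups in complexes I, III and V. Summed FPKM of mitochondrially over nuclear-encoded subunits of complex I was 1.53, 1.21 and 1.07 in arachidonic acid libraries 1, 2 and 3 and 1.90, 2.32 and 1.77 in vehicle libraries 1, 2 and 3. For complex III it was 0.961, 0.790 and 0.679 with arachidonic acid and 1.37, 1.68 and 1.37 with vehicle. For complex IV it was 1.24, 1.40 and 1.297 with arachidonic acid and 1.32, 1.80 and 1.26 with vehicle, and the groups overlapped. The mitochondrially encoded part of complex IV was nearly all mt-Co1, and nuclear copies make the levels of mt-Co2 and mt-Co3 uncertain. For complex V the ratio was 0.0043, 0.0040 and 0.0049 with arachidonic acid and 0.012, 0.024 and 0.014 with vehicle, on levels that the nuclear copies make uncertain.

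**Figure D5:**
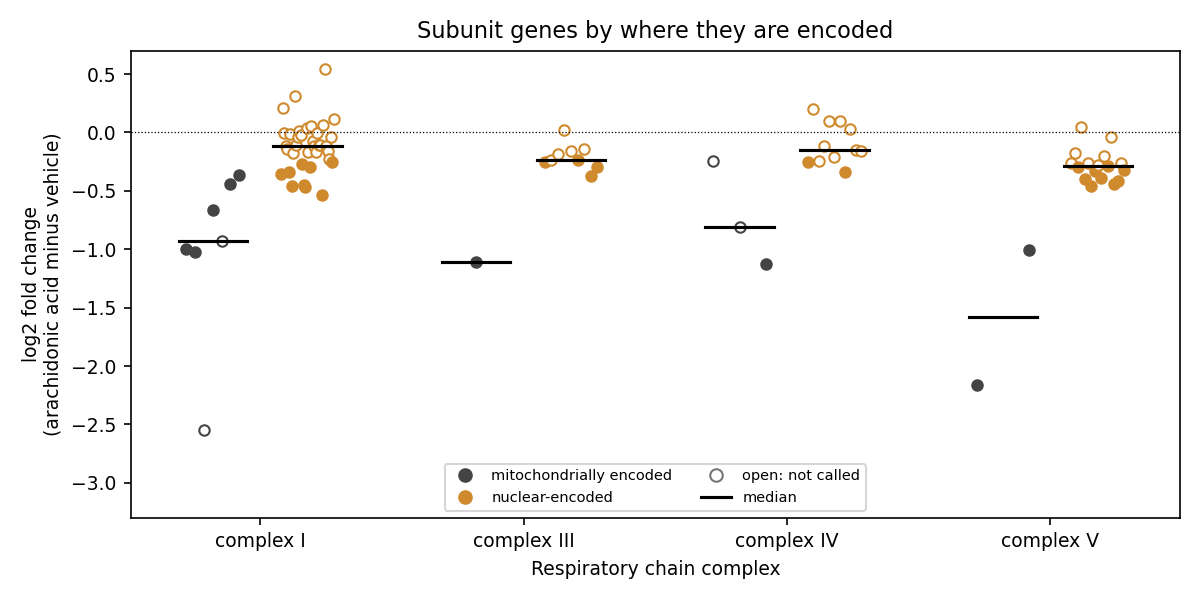
Log2 fold change (arachidonic acid minus vehicle) of mitochondrially encoded (dark) and nuclear-encoded (orange) subunits of each complex with both kinds; filled points passed the test, open points did not and bars are medians. Medians of mitochondrially encoded subunits are -0.93, -1.11, -0.81 and -1.58 for complexes I, III, IV and V, and those of nuclear-encoded subunits -0.11, -0.23, -0.15 and -0.29. Complex III has 1 mitochondrially encoded subunit. The complex IV median is that of mt-Co2 (not called, nuclear copy), whereas mt-Co1 is at -0.25. The complex V median rests on mt-Atp6, uncertain because of its nuclear copy, and on mt-Atp8, with 15 to 69 fragments per library.

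Of 9 tested genes for mitochondrial transcription, 3 (33.3%, against 19.4% of all rows) fell and 0 rose, with a median log2 fold change of -0.08. Without arachidonic acid library 1 the count was again 3, and it was 1 on leaving out any other library. Polrmt, the mitochondrial RNA polymerase, was at 19.9 ± 2.06 FPKM with arachidonic acid and 28.0 ± 0.165 FPKM with vehicle (SD, n = 3 each; log2 fold change -0.47, limma adjusted p = 0.0073), a call that held without each library in turn. Tfam, which packages mitochondrial DNA and acts at its promoters, was at 51.1 ± 10.9 FPKM with arachidonic acid and 72.0 ± 2.86 FPKM with vehicle (log2 fold change -0.51, limma adjusted p = 0.028). Tefm, the elongation factor, had a log2 fold change of -0.38 (limma adjusted p = 0.040), a call also lost with TPM rescaling, with the mitochondrial genes left out of the total and with limma-voom. The calls of Tfam and Tefm were lost on leaving out any library except arachidonic acid library 1, with adjusted p up to 0.094 and 0.12. For the lists of transcription, rRNA modification and biogenesis genes, in which limma called 0 higher, 0 were also higher at an unadjusted p below 0.05 and with limma-voom. Tfb2m, which opens the promoter with the polymerase, was at 29.9 ± 2.90 FPKM with arachidonic acid and 29.8 ± 3.24 FPKM with vehicle (limma adjusted p = 0.95).

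Of 19 tested genes of RNA processing and stability, 1 (5.26%) rose and 3 (15.8%) fell, shares below those of all rows (20.8% higher and 19.4% lower), with a median log2 fold change of 0.02 (-0.02 with quantile normalization). The lower count was 6 without arachidonic acid library 1 and 1 to 2 without any other library. Elac2, which cuts the 3′ ends of tRNAs from mitochondrial precursors, was at 30.1 ± 1.96 FPKM with arachidonic acid and 21.9 ± 1.71 FPKM with vehicle (log2 fold change 0.44, limma adjusted p = 0.0084). Hsd17b10, a subunit of the mitochondrial RNase P that cuts their 5′ ends, was at 116 ± 5.01 FPKM with arachidonic acid and 150.2 ± 5.16 FPKM with vehicle (log2 fold change -0.37, limma adjusted p = 0.0052). Both calls held without each library in turn. Lrpprc, which stabilises mitochondrial mRNAs, was at 82.7 ± 4.72 FPKM with arachidonic acid and 82.5 ± 3.63 FPKM with vehicle (limma adjusted p = 0.98). Pnpt1 and Supv3l1, which degrade mitochondrial RNA, had log2 fold changes of 0.02 each (limma adjusted p = 0.78 and 0.85). Slirp, the partner of Lrpprc, was at 0 to 0.287 FPKM and was not tested.

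Genes for rRNA modification were mostly lower. Of 7 tested, 5 fell and 0 rose (71.4% lower, against 19.4% of all rows), with a median log2 fold change of -0.36, and 2 to 5 fell when single libraries were left out. Mrm3, a methyltransferase of the large-subunit rRNA, was at 14.7 ± 0.907 FPKM with arachidonic acid and 20.8 ± 1.43 FPKM with vehicle (log2 fold change -0.47, limma adjusted p = 0.0065). Mrm1, which methylates the same rRNA, was at 24.0 ± 0.509 FPKM with arachidonic acid and 31.2 ± 1.82 FPKM with vehicle (log2 fold change -0.36, limma adjusted p = 0.0079). Both calls held without each library in turn.

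Genes for mitochondrial DNA replication and maintenance showed 2 of 15 higher and 2 lower (13.3% each, against 20.8% and 19.4% of all rows), with a median log2 fold change of -0.05 (0.00 with TPM rescaling). Without arachidonic acid library 1, 5 were higher and 3 lower, and without any other single library 2 were higher and 0 to 1 lower; with quantile normalization 4 were lower. Rrm2b, the p53-inducible ribonucleotide reductase subunit that supplies deoxynucleotides outside S phase, was at 8.24 ± 1.25 FPKM with arachidonic acid and 3.86 ± 0.534 FPKM with vehicle (log2 fold change 0.92, limma adjusted p = 0.0039). Slc25a33, a pyrimidine nucleotide carrier of the inner membrane, was at 11.7 ± 2.32 FPKM with arachidonic acid and 5.99 ± 0.483 FPKM with vehicle (log2 fold change 0.84, limma adjusted p = 0.0067). Both calls held without each library in turn. Twnk, the replicative helicase, had a log2 fold change of -0.32 (limma adjusted p = 0.017), lost on leaving out any library except arachidonic acid library 1 (adjusted p up to 0.061). Polg, the replicative polymerase, was at 38.8 ± 0.978 FPKM with arachidonic acid and 40.9 ± 1.83 FPKM with vehicle (limma adjusted p = 0.36). The number of mitochondrial genomes per cell was not measured.

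Among regulators of mitochondrial biogenesis, 1 of 8 tested fell and 0 rose, with a median log2 fold change of -0.12. That is 12.5% lower, against 19.4% of all rows, and the count was 3 without arachidonic acid library 1 and 0 to 1 without any other library. Esrra, the nuclear receptor that drives respiratory genes, was at 284 ± 13.4 FPKM with arachidonic acid and 348 ± 28.3 FPKM with vehicle (log2 fold change -0.29, limma adjusted p = 0.025), a call lost without arachidonic acid library 2 or 3 or vehicle library 1 or 2 (adjusted p up to 0.093). Ppargc1a, a coactivator of the same programme, was at 2.98 ± 0.330 FPKM with arachidonic acid and 2.97 ± 0.121 FPKM with vehicle (limma adjusted p = 0.99). Nrf1, which binds promoters of nuclear respiratory genes, had a log2 fold change of -0.30 (limma adjusted p = 0.11), and passed the threshold without arachidonic acid library 1 (adjusted p = 0.00063). Of 28 genes for mitochondrial translation factors and tRNA synthetases, 2 (7.14%) rose and 7 (25%) fell, against 20.8% and 19.4% of all rows, with a median log2 fold change of -0.14. Oxa1l, which inserts newly made subunits into the inner membrane, had a log2 fold change of -0.30 (limma adjusted p = 0.0096), and Vars2, the valyl-tRNA synthetase, of 0.41 (limma adjusted p = 0.016). The call of Oxa1l held without each library in turn, and that of Vars2 was lost on leaving out any library except arachidonic acid library 1 (adjusted p up to 0.063). Without arachidonic acid library 1, 14 of these genes fell and 2 rose, and without arachidonic acid library 3, 1 fell and 0 rose.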

How the data were processed

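The files hold 1 column of values per library, taken as FPKM that the authors made from fragments, gene lengths and library totals. The unit was inferred from the deposited values, since no label names it. Per the submitters' processing notes, featureCounts 1.5.0-p3, HISAT2 2.0.5 and StringTie 1.3.3b were used, with no roles stated. Build, annotation and use of strand: not given in the sources used here. Names, lengths, coordinates and sequences came from GENCODE M21 on GRCm38. FPKM times mean transcript length gave whole fragments for the mitochondrial genes (within 0.000123) and an implied total of 35.6 to 50.8 M fragments per library.

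Rows with a mean of at least 1 FPKM were tested as log2(FPKM + 1) with limma 3.58.1 (trend) in R 4.3.3, two-sided, with Benjamini-Hochberg adjustment over 12913 rows and a threshold of 0.05. The planned form for FPKM was used, and it was also run on simulated data. Those data held no library set apart from its group, as arachidonic acid library 1 was, so they do not show how the test behaves in that case. The text names every mitochondrial mRNA and rRNA, tRNAs with values, up to 4 tested genes of smallest p in each list and 13 fixed genes; a gene that this rule names is not reported here. Copies were found with blastn 2.17.0 among annotated transcripts (at least 99% identity over 200 bases) and with exact 100-base windows. Members and lists were chosen with earlier results of these data known. Replicate numbers are shared by the groups but not said to pair them, and deviations of same-numbered libraries correlated at -0.081, 0.210 and -0.062 across genes. Alternatives were another pseudocount, other filters, 4 scalings, limma-voom, the block and libraries left out.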

Additional observations from a re-analysis of the deposited data

How the results depend on the processing

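No called gene reversed under any alternative. Over the 16 mitochondrial genes, 243 of 303 alternative values stayed on their side of the threshold, 50 lost a call and 10 gained one. Of these 16, 11 were called lower, against 7 with no filter on low values (mt-Rnr2, mt-Atp8, mt-Nd5 and mt-Nd6 lost), 9 to 10 under the 4 scalings, 12 with limma-voom, 6 to 13 with single libraries left out, and 2 each with both libraries numbered 2 or both numbered 3 left out. The only genes that gained a call of lower in any alternative were mt-Nd3 and mt-Nd4l, whose levels the nuclear copies make uncertain. No gene was called higher, except 1 (mt-Tp) with TPM rescaling, with median-of-ratios scaling, with the members left out of the total and without vehicle library 2, so that leaving out single libraries gave 0 to 1. Over the 16 genes tested the median fold change (log2) was -1.16 to -0.85 with single libraries left out and -0.78 with both numbered 2 left out. Over all rows, 2690 were higher and 2502 lower. Leaving out single libraries gave 1712 to 3554 higher and 1245 to 4192 lower. With both libraries numbered 1 left out 3844 were lower, with both numbered 2 left out 635 were higher and 219 lower, and with both numbered 3 left out 390 were higher and 140 lower. These settings also hold fewer libraries, and the cause of these differences was not tested. The replicate block gave 10 members lower (mt-Atp8 lost, adjusted p = 0.053) and 2263 rows higher and 1998 lower, and same-numbered libraries did not deviate together in every pair. The alternative with copies added was chosen after seeing the data and gave 11 members lower. The share of all FPKM in the members (12 alternatives), and mt-Co1 as a share of mRNA, complex IV over complex I, mt-Nd6 over mt-Cytb and rRNA over mRNA (single libraries left out), moved by less than their replicate spread; no alternative was run for the other ratios. Fragment counts limit mt-Atp8 most.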

Other observations

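Of the 7 copies in the chromosome 1 block, 4 passed the test and were lower, against 19.4% of all rows called lower and 20.8% called higher. Gm10925 (copy of mt-Atp6) was at 39.3, 28.8 and 32.9 FPKM in arachidonic acid libraries 1, 2 and 3 and at 78.8, 90.3 and 74.6 FPKM in vehicle libraries 1, 2 and 3, and it fell (log2 fold change -1.25, limma adjusted p = 0.0013). Gm28437 (copy of mt-Co3) was at 25.6, 23.8 and 23.2 FPKM with arachidonic acid and at 42.0, 47.5 and 43.9 FPKM with vehicle, and it fell (log2 fold change -0.85, limma adjusted p = 0.00089). Gm28661 (copy of mt-Co2) and Gm28439 (copy of the first part of mt-Nd4) fell too, with log2 fold changes of -0.59 (limma adjusted p = 0.013) and -0.46 (limma adjusted p = 0.014). Gm10222 (copy of mt-Nd4l) was at 11.9, 15.5 and 17.4 FPKM with arachidonic acid and at 13.8, 15.7 and 12.8 FPKM with vehicle, and Gm29216 (copy of the end of mt-Co1) at 30.2, 30.5 and 32.4 FPKM with arachidonic acid and at 26.2, 36.7 and 30.3 FPKM with vehicle. Neither passed the test (limma adjusted p = 0.74 and 0.96). For Gm28438, the copy of mt-Nd3, FPKM was 7.65, 67.5 and 80.5 with arachidonic acid and 13.03, 13.5 and 11.8 with vehicle (log2 fold change 1.41, limma adjusted p = 0.20). Since these rows match mitochondrial genes at 99.7% to 100% of aligned bases, whether their fragments came from nuclear or mitochondrial DNA cannot be told apart.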
